A study of Homo sapiens with 12 samples.

Results

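The transcripts described here encode 10 secreted inflammatory signals: the CXC chemokines CXCL1, CXCL2, CXCL3, CXCL5, CXCL6 and CXCL8, the CC chemokines CCL2 and CCL20, and the cytokines IL6 and LIF. They were chosen by name with earlier results of these arrays known, so counts and medians of the 10 genes are descriptions. Every probe set that the platform annotation assigned to exactly 1 of these symbols was used. All 10 genes were represented, by 13 probe sets among the 19064 probe sets and 11963 genes of the series. CXCL5 had 3 probe sets, CXCL8 had 2 and each of the other genes had 1. RNA came from RCC4, an established cell line from a human clear cell renal carcinoma, profiled on 12 Affymetrix arrays. The groups were siMESH1+siATF4, siMESH1, siATF4 and the non-targeting control siNT, with 3 biological replicates each, and every culture received 40 pmol of siRNA for 72 h. How this amount was divided when both siRNAs were given is not stated in the sources used here, so the dose of each in siMESH1+siATF4 is unknown. MESH1, the product of HDDC3, was targeted by a single siRNA and ATF4 by 1 pool, so on-target and off-target actions of either reagent cannot be told apart on these arrays. The study itself set genes that changed with siATF4 alone aside as off-target. All groups share 1 cell line.

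CXCL1, CXCL2, CXCL3, CXCL5, CXCL6 and CXCL8 are neutrophil attractants that act through the receptor CXCR2, and CXCL6 and CXCL8 also engage CXCR1. CCL2 draws monocytes through CCR2, CCL20 draws lymphocytes and dendritic cells through CCR6, and IL6 and LIF both signal through the shared receptor subunit IL6ST. Promoters of this group are classical targets of NF-kB, often together with AP-1 and C/EBP factors, and several of the mRNAs are short-lived because decay factors of the ZFP36 family bind them. Renal carcinoma cells are known to secrete IL6 and CXCL8.

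Promoter sequence was shown because 6 of the genes are near relatives that lie in a single cluster on chromosome 4. RefSeq promoters (GRCh38.p14, 250 bases before to 50 bases after each gene's start) were found for 8 of the 10 genes. The motif GGNNTTTCC, a core of the NF-kB binding site searched on both strands, occurred in 8 of these 8 windows, against 6.18% of 27305 promoters of the same length. Promoters of this group are known targets of NF-kB and 6 of the genes are near relatives, so the 8 windows are no independent test. Capitals mark the matched core in the lines that follow, each 61 bases long and read 5′ to 3′ along the gene's own strand. The windows lie at chr4:73869289-73869349 (plus strand) for CXCL1, chr4:74099238-74099298 (minus) for CXCL2, chr4:74038733-74038793 (minus) for CXCL3, chr4:73998733-73998793 (minus) for CXCL5, chr4:73836563-73836623 (plus) for CXCL6, chr4:73740452-73740512 (plus) for CXCL8, chr2:227813737-227813797 (plus) for CCL20 and chr7:22727102-22727162 (plus) for IL6.
CXCL1: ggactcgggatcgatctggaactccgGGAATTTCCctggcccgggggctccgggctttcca
CXCL2: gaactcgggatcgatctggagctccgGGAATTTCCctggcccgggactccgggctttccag
CXCL3: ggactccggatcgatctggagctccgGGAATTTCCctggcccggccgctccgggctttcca
CXCL5: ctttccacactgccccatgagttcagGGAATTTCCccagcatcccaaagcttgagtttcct
CXCL6: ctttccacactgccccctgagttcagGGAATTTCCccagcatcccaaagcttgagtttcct
CXCL8: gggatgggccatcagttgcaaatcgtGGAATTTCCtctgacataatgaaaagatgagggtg
CCL20: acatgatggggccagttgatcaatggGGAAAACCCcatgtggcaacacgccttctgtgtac
IL6: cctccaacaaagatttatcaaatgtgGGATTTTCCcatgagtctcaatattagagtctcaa

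The same 9 bases, GGAATTTCC, stood 77 to 91 bases before the start of all 6 CXC chemokine genes, while IL6 held GGATTTTCC 72 bases before its start and CCL20 held the core on the opposite strand. CXCL1, CXCL2 and CXCL3 each had a further match, GGGCTTTCC, 53 bases before the start, which appears in lower case near the end of their lines. The CXCL5 and CXCL6 windows differed at 1 of 61 bases and their whole promoters were 83.1% identical. Identity was 82.5% between CXCL1 and CXCL3, 72.1% between CXCL1 and CXCL2, and 43.0% between CXCL6 and CXCL8. A match to the AP-1 motif TGANTCA was found in 1 of 8 promoters, that of CXCL8 (7.91% of all promoters), and a match to the C/EBP motif TTGCNNAA in 2 of 8, those of CXCL2 and IL6 (10.6%). The C/EBP-ATF composite motif TGATGNAA, the kind of element through which ATF4 binds, was in 0 of 8 (3.75%), which says only that these letters were not in the windows searched. These motifs were searched on both strands and none of their matches overlapped the NF-kB core.

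Each value is a log2 signal minus the siNT mean of the same probe set, so the siNT arrays average 0 and no level of a gene is known. A gene was called when it passed an adjusted p of 0.05 in limma (Benjamini-Hochberg, 11963 genes) and differed by 0.5 or more in log2 units, here named the fold minimum. ATF4, the target of the pool, was lower by 5.01-fold in siMESH1+siATF4 (log2 difference -2.32, limma adjusted p = 1.6e-10) and by 4.95-fold in siATF4 (log2 difference -2.31), and stood at -0.028 in siMESH1 (adjusted p = 0.81). HDDC3 was not analysed here. Array medians averaged 0.016 in siMESH1+siATF4, 0.027 in siMESH1 and 0.019 in siATF4. The mean of 11 housekeeping genes lay lower, at -0.22, -0.33 and -0.15 in the same order, against a siNT mean of 0. Their medians were -0.092, -0.21 and -0.043. Some of the 11 were themselves called lower, 1, 3 and 2 in the same order. The lowest were PGK1 in siMESH1+siATF4 (-0.94) and TFRC in siMESH1 (-1.17). The housekeeping mean is therefore not a fixed reference, and centring on it carries these changes into every gene. Centring the arrays on the housekeeping mean turned the share of called genes that were higher to 80.2% for siMESH1+siATF4 vs siNT (45.6% as deposited), 89.7% for siMESH1 vs siNT (34.4%), 67.8% for siATF4 vs siNT (38.2%), 32.3% for siMESH1+siATF4 vs siMESH1 (56.0%), 44.6% for siMESH1+siATF4 vs siATF4 (21.5%), 77.3% for siMESH1 vs siATF4 (45.2%) and 13.5% for the interaction (80.2%). Calls among the 10 genes that depend on this choice are named beside them.

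CXCL1, CXCL2, CXCL6, IL6 and LIF were higher in siATF4 than in siNT, most of all IL6 and CXCL6, and with 1 ATF4 pool loss of ATF4 and other actions of the siRNAs cannot be told apart as the source. These were 5 of the 10 genes called higher and 0 called lower, where 2.49% of all genes were called higher, and the median difference was 0.48 for the 10 genes and 0.020 for all genes. IL6, which drives STAT3 signalling, stood at 1.09, 1.06 and 1.17 on the siATF4 arrays, against -0.014, 0.063 and -0.050 on the siNT arrays. It was thus higher on every siATF4 array than on any siNT array, by 2.15-fold (1.10, SE 0.064, adjusted p = 6.8e-08). CXCL6 stood at 1.07, 1.01 and 1.15 in siATF4, against 0.048, -0.14 and 0.095 in siNT, also without overlap, a rise of 2.11-fold (1.08, SE 0.077, adjusted p = 4.2e-07).

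The other rises in siATF4 were smaller. CXCL2 was at 0.73, 0.77 and 0.50 in siATF4 and at 0.10, 0.035 and -0.13 in siNT (1.59-fold, adjusted p = 2.3e-05). CXCL1 was at 0.63, 0.56 and 0.54 in siATF4 and at 0.007, 0.044 and -0.051 in siNT (1.49-fold, adjusted p = 4.0e-06). LIF, a cytokine related to IL6, was at 0.53, 0.62 and 0.65 in siATF4 and at 0.055, 0.062 and -0.12 in siNT (1.52-fold, adjusted p = 3.7e-04). All siATF4 arrays lay above all siNT arrays for these genes. CXCL5 (0.32, adjusted p = 0.0053) and CXCL8 (0.38, adjusted p = 0.0068) passed the adjusted p but not the fold minimum, and CXCL8 reached 0.53 and was called with arrays centred on housekeeping genes. CCL2 (0.24, adjusted p = 0.12), CXCL3 (0.19, adjusted p = 0.30) and CCL20 (-0.019, adjusted p = 0.92) passed neither.

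**Figure D1:**
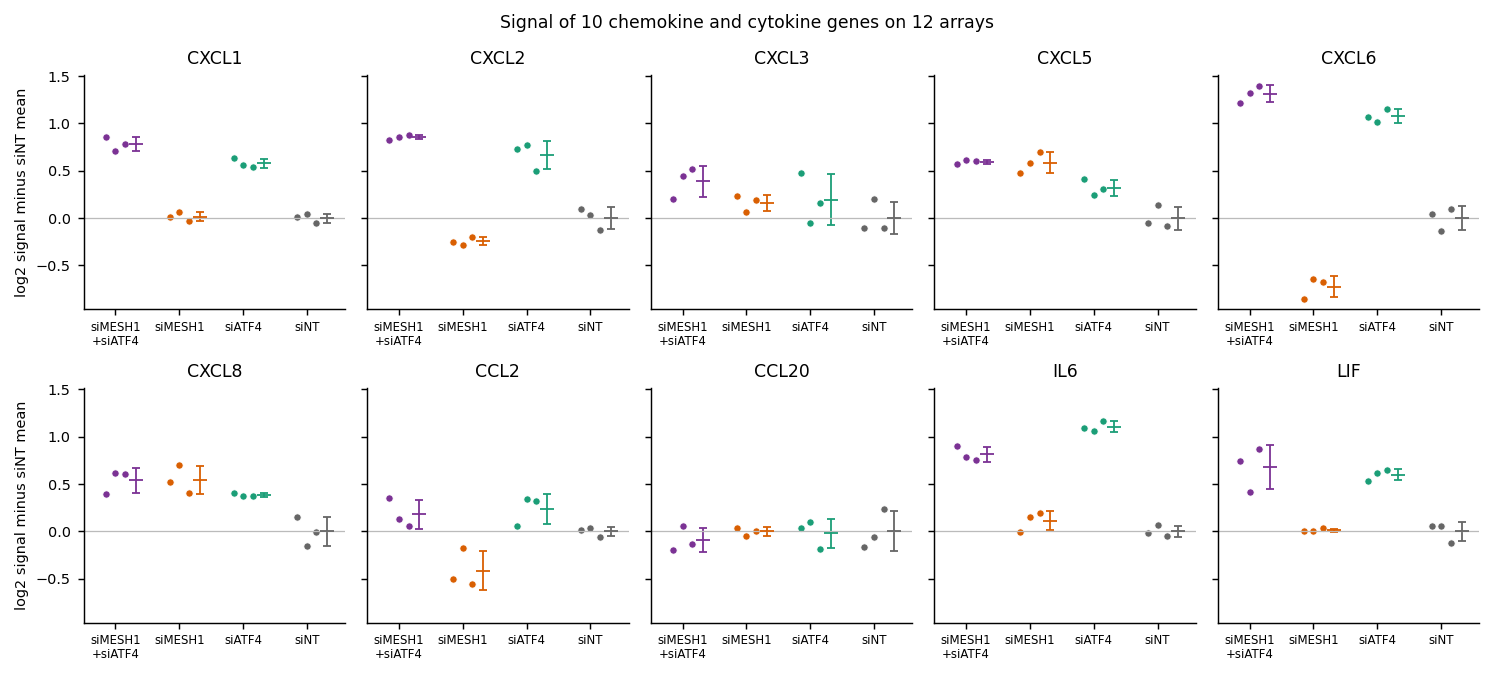
Vertical axes give the log2 signal relative to the siNT mean of each of the 10 genes on each of the 12 arrays, by siRNA group (horizontal axis). Points are arrays, and the bar beside them is the group mean with its SD (n = 3). CXCL6 lies between 1.22 and 1.40 in siMESH1+siATF4, between -0.85 and -0.64 in siMESH1, and between 1.01 and 1.15 in siATF4, while the groups of CCL20 overlap.

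In siMESH1, CXCL5 and CXCL8 were higher than in siNT and CXCL6 was lower. Thus 3 of the 10 genes were called, 2 higher and 1 lower, where 8.19% of all genes were called in either direction, and the median difference was 0.015 against 0.028 for all genes. CXCL6 stood at -0.85, -0.64 and -0.68 on the siMESH1 arrays, below every siNT array, and fell 1.65-fold (-0.72, SE 0.077, adjusted p = 1.1e-05). With arrays centred on housekeeping genes its difference was -0.39 and was no longer called.

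CXCL5 stood at 0.48, 0.58 and 0.70 in siMESH1, against -0.053, 0.14 and -0.085 in siNT (difference 0.59, SE 0.073, adjusted p = 4.0e-05). CXCL8 stood at 0.52, 0.70 and 0.41 in siMESH1, against 0.15, -0.15 and -0.002 in siNT (1.45-fold, SE 0.091, adjusted p = 4.8e-04). Both pairs of groups were separate, and housekeeping centring gave larger values, 0.92 for CXCL5 and 0.87 for CXCL8. The CXCL8 call was lost when siNT replicate 2 (0.47) or siMESH1 replicate 2 (0.46) was left out, and both calls depended on the probe set, as described further on. CCL2 was at -0.50, -0.18 and -0.56 in siMESH1 and at 0.014, 0.041 and -0.054 in siNT, lower on every array but under the fold minimum (-0.41, adjusted p = 0.0090), and it was called without siMESH1 replicate 2 (-0.53). With housekeeping centring CCL2 was at -0.083 and did not pass the test (adjusted p = 0.45). CXCL2 was also slightly lower (-0.24, adjusted p = 0.024) and turned to 0.087 with housekeeping centring. IL6 (0.11, 95% interval -0.025 to 0.25), LIF (0.014, -0.19 to 0.22) and CXCL1 (0.016, -0.10 to 0.13) did not pass the test on the deposited scale, and neither did CXCL3 (0.16, -0.12 to 0.44) or CCL20 (-0.001, -0.23 to 0.23). With housekeeping centring these 5 genes were higher, still under the fold minimum, at 0.44 for IL6 (adjusted p = 6.1e-05), 0.34 for LIF (adjusted p = 0.0041), 0.35 for CXCL1 (adjusted p = 8.2e-05), 0.49 for CXCL3 (adjusted p = 0.0043) and 0.33 for CCL20 (adjusted p = 0.016), so whether they differed depends on the scaling.

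The direct difference between the single silencings was largest for CXCL6, which was 3.49-fold lower in siMESH1 than in siATF4 (-1.80, SE 0.077, adjusted p = 5.5e-09). IL6 was 1.99-fold lower in siMESH1 (-0.99, adjusted p = 1.3e-07) and CXCL2 1.88-fold lower (-0.91, adjusted p = 1.1e-06). CCL2 (-0.65), LIF (-0.59) and CXCL1 (-0.56) were lower as well, so that 6 of the 10 genes were called lower and 0 higher, where 4.75% of all genes were called lower. The median was -0.57 for the 10 genes and 0.003 for all genes. Under housekeeping centring 3 of these calls held, those of CXCL2, CXCL6 and IL6, while CCL2 (-0.47), LIF (-0.40) and CXCL1 (-0.38) lay under the fold minimum. CXCL5 was higher in siMESH1 than in siATF4 by 0.27 (adjusted p = 0.012), under the fold minimum.

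**Figure D2:**
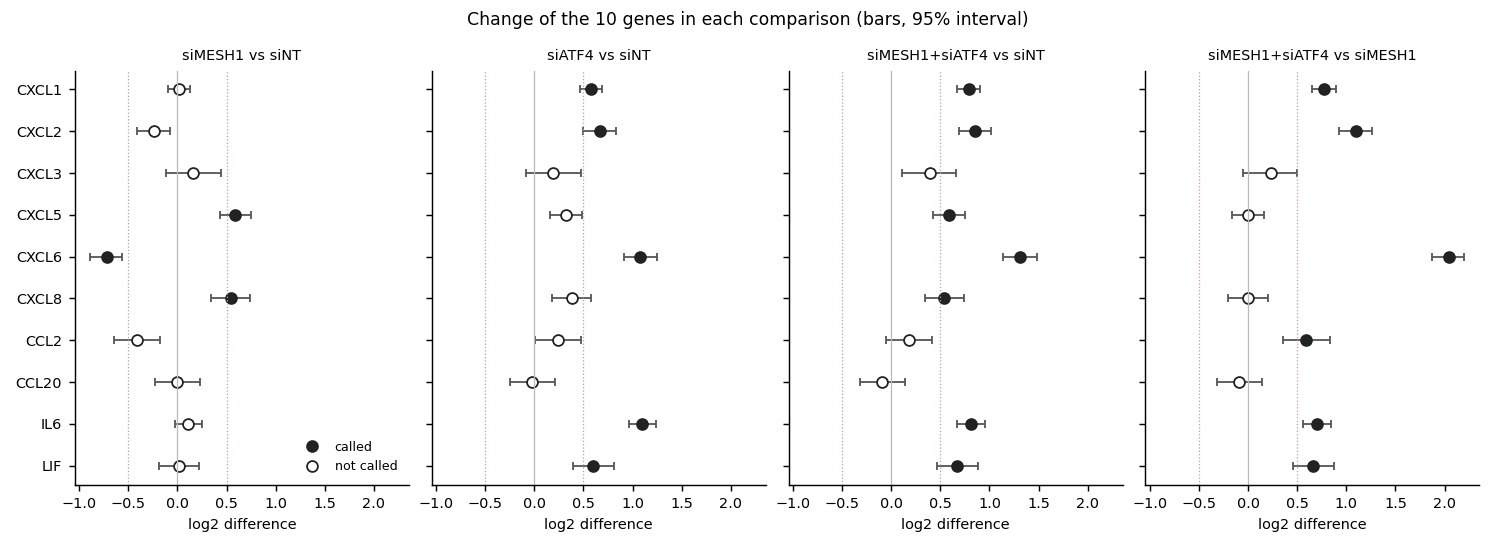
Log2 differences of the 10 genes (rows) in 4 comparisons (panels), with 95% intervals from the limma fit. Filled points were called, open points were not, and dotted lines mark the fold minimum. CXCL6 is the highest point in siMESH1+siATF4 vs siMESH1 (2.04) and the lowest in siMESH1 vs siNT (-0.72).

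In siMESH1+siATF4, 7 of the 10 genes were higher than in siNT and 0 lower, where 4.40% of all genes were called higher. These were CXCL1, CXCL2, CXCL5, CXCL6, CXCL8, IL6 and LIF, and the median of the 10 genes was 0.63 against 0.013 for all genes. CXCL6 stood at 1.22, 1.32 and 1.40 in siMESH1+siATF4 and rose 2.48-fold over siNT (1.31, SE 0.077, adjusted p = 3.6e-08). CXCL2 stood at 0.83, 0.86 and 0.88 (1.81-fold, adjusted p = 1.6e-06) and CXCL1 at 0.86, 0.71 and 0.78 (1.72-fold, adjusted p = 1.4e-07). IL6 stood at 0.90, 0.79 and 0.75 (1.76-fold, adjusted p = 5.3e-07) and LIF at 0.74, 0.42 and 0.87 (1.60-fold, adjusted p = 9.5e-05). Every one of these arrays lay above the siNT arrays of its gene given earlier. CXCL5, at 0.57, 0.61 and 0.60 (1.51-fold, adjusted p = 3.2e-05), and CXCL8, at 0.39, 0.62 and 0.61 (1.45-fold, adjusted p = 4.3e-04), also lay above siNT. CXCL8 lost its call without siNT replicate 2 (0.46) or siMESH1+siATF4 replicate 2 (0.50). CXCL3 was at 0.20, 0.44 and 0.52 in siMESH1+siATF4, against -0.10, 0.20 and -0.10 in siNT. It passed the adjusted p but not the fold minimum (0.39, adjusted p = 0.030), and it was called with housekeeping centring (0.61). CCL2 (0.18, adjusted p = 0.23) and CCL20 (-0.093, adjusted p = 0.56) did not pass the test.

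Against siMESH1, 6 of the 10 genes were higher in siMESH1+siATF4 and 0 lower, where 3.42% of all genes were called higher, with a median of 0.63 for the 10 genes and -0.010 for all genes. CXCL6 differed most, being 4.10-fold higher in siMESH1+siATF4 than in siMESH1 (2.04, SE 0.077, 95% interval 1.87 to 2.20, adjusted p = 8.5e-09). CXCL2 was 2.14-fold higher (1.10, adjusted p = 4.1e-07), CXCL1 1.70-fold (0.77), IL6 1.62-fold (0.70) and LIF 1.58-fold (0.66). CCL2 was at 0.35, 0.13 and 0.058 in siMESH1+siATF4 and at -0.50, -0.18 and -0.56 in siMESH1, separate and 1.51-fold higher (0.59, SE 0.11, adjusted p = 0.0011). The CCL2 call was lost with housekeeping centring (0.48). CXCL5 (0.001, 95% interval -0.16 to 0.16) and CXCL8 (-0.001, -0.20 to 0.20), the genes that were higher in siMESH1, had no difference larger than the spread between arrays. The CXCL5 value is a mean of probe sets that differed in direction, none of them called. They were at -0.23 for 207852_at (adjusted p = 0.090), 0.12 for 214974_x_at and 0.11 for 215101_s_at.

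In siMESH1+siATF4 vs siATF4 limma called 0 of the 10 genes, where 1.63% of all genes were called in either direction. At an unadjusted p under 0.05 there were 5 (CXCL1, CXCL2, CXCL5, CXCL6 and IL6), and 3 had an adjusted p under 0.05 with a difference under the fold minimum. Before and after adjustment, the methods' t-test with the same fold minimum called 0. The 3 were CXCL1 (0.21, adjusted p = 0.024), CXCL5 (0.27, adjusted p = 0.030) and IL6, which was lower (-0.29, adjusted p = 0.010). With housekeeping centring CXCL2 (0.26, adjusted p = 0.032) and CXCL6 (0.31, adjusted p = 0.021) passed the adjusted p as well, under the fold minimum. IL6 was the only gene of the 10 whose siMESH1+siATF4 arrays, 0.75 to 0.90, all lay below the siATF4 arrays, 1.06 to 1.17. The CXCL5 value depends on the probe set. Probe set 215101_s_at was called (0.54, adjusted p = 0.015), as was the gene with 1 probe set per gene, while 214974_x_at gave 0.32 and 207852_at gave -0.043. The median was 0.17 for the 10 genes and -0.001 for all genes.

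The interaction asks whether the difference made by siMESH1 was the same with and without siATF4, and subtracts the siMESH1 vs siNT difference from that of siMESH1+siATF4 vs siATF4. It was called for 1 of the 10 genes, where 4.31% of all genes were called in either direction. That gene was CXCL6, for which siMESH1 made a difference of 0.23 with siATF4 (95% interval 0.065 to 0.40) and of -0.72 without it (-0.89 to -0.56), an interaction of 0.96 (SE 0.11, adjusted p = 9.5e-05). CXCL2 had an interaction of 0.43 (SE 0.11, adjusted p = 0.020) and IL6 of -0.40 (SE 0.090, adjusted p = 0.012), both under the fold minimum, and CXCL2 did not pass the test with housekeeping centring (0.17, adjusted p = 0.17). For IL6 the siMESH1 difference was -0.29 with siATF4 and 0.11 without it. CXCL5 (-0.32, adjusted p = 0.069) and CXCL8 (-0.38, adjusted p = 0.079) did not pass. With housekeeping centring CXCL5 (-0.57), CXCL8 (-0.64) and IL6 (-0.66) were called beside CXCL6. The interaction shares its siMESH1 and siNT arrays with the siMESH1 values given before.

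**Figure D3:**
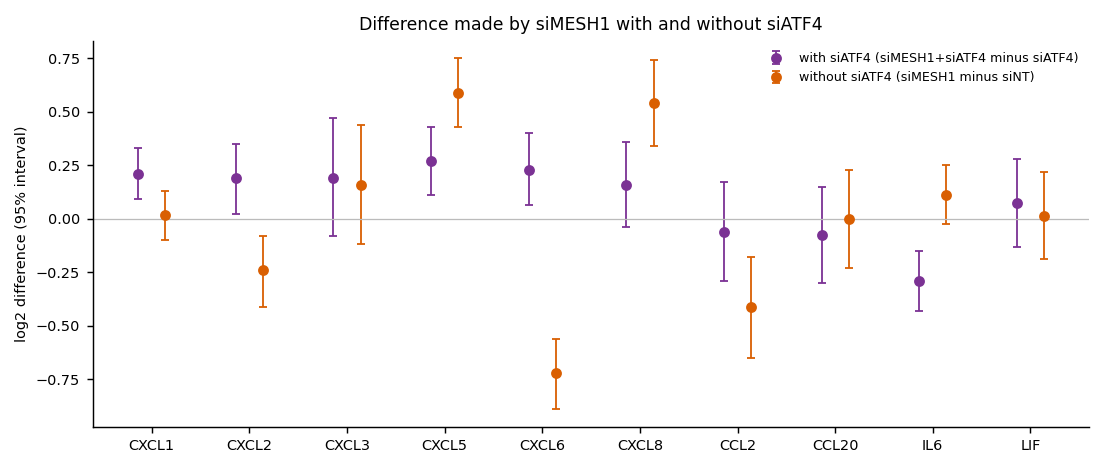
Log2 difference made by siMESH1 (vertical axis, with 95% intervals) for each of the 10 genes in the presence of siATF4 (siMESH1+siATF4 minus siATF4) and in its absence (siMESH1 minus siNT). The pair is farthest apart for CXCL6, at 0.23 with siATF4 and -0.72 without it.

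CXCL5 and CXCL8 have several probe sets, which differed in size. Of the 13 probe sets 8 were called in siMESH1+siATF4 vs siNT (10.5% of all probe sets), 4 in siMESH1 vs siNT (8.95%) and 7 in siATF4 vs siNT (6.89%). CXCL8 probe set 202859_x_at stood at 0.69, 0.88 and 0.92 in siMESH1+siATF4, at 0.86, 0.89 and 0.91 in siMESH1, and at 0.63, 0.62 and 0.56 in siATF4, against 0.14, -0.13 and -0.013 in siNT. It was called in all 3 groups, with siMESH1 at 1.85-fold (adjusted p = 2.1e-06). Probe set 211506_s_at of the same gene averaged 0.24 in siMESH1+siATF4, 0.19 in siMESH1 and 0.16 in siATF4, overlapped siNT in each, and was called in none (adjusted p = 0.19, 0.32 and 0.43). Its siMESH1 arrays were spread widely, at 0.17, 0.50 and -0.10.

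For CXCL5, probe sets 214974_x_at and 215101_s_at averaged 0.86 and 0.81 in siMESH1+siATF4 and 0.73 and 0.71 in siMESH1, and both were called in these groups. In siATF4, 214974_x_at stood at 0.54 and was called, and 215101_s_at stood at 0.27 and was not. Probe set 207852_at averaged 0.10 in siMESH1+siATF4 (adjusted p = 0.45), 0.33 in siMESH1 (adjusted p = 0.015) and 0.14 in siATF4 (adjusted p = 0.29) and was called in none. In Affymetrix naming the endings _x_at and _s_at mark probes that may also bind other transcripts. Without such probe sets CXCL5 was 0.33 in siMESH1 and 0.10 in siMESH1+siATF4, uncalled in both, and CXCL2, CXCL8 and CCL2 had no probe set left. The siMESH1+siATF4 count then was 4 (CXCL1, CXCL6, IL6 and LIF) and the siMESH1 count was 1 (CXCL6). The single CXCL2 probe set, 209774_x_at, is of this kind, and whether CXCL1 or CXCL3 transcripts contributed to it was not tested.

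**Figure D4:**
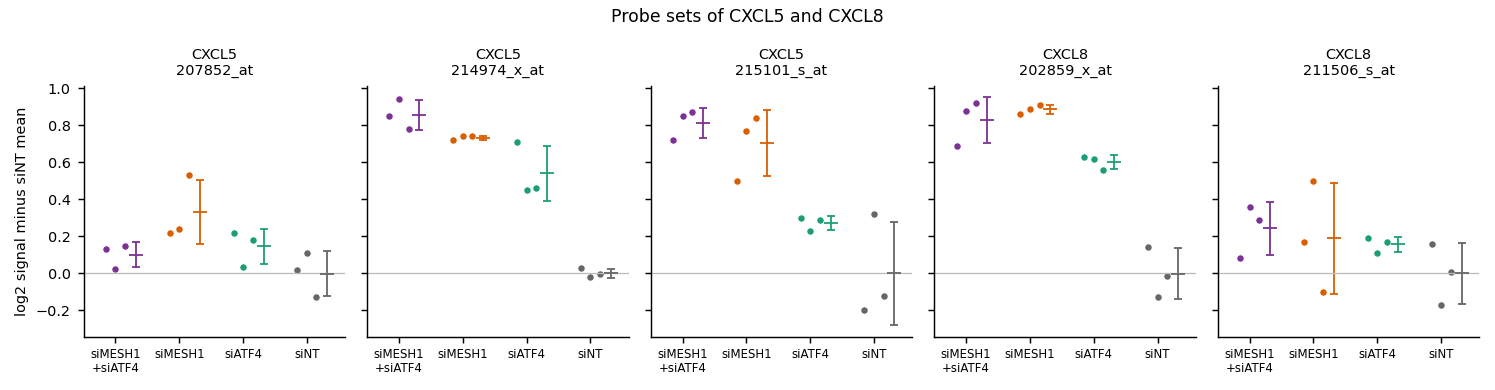
Vertical axes give the log2 signal relative to the siNT mean of the 3 CXCL5 probe sets and the 2 CXCL8 probe sets on each array, by siRNA group. Points are arrays and the bar beside them is the mean with its SD (n = 3). CXCL8 probe set 202859_x_at averages 0.83, 0.89 and 0.60 in siMESH1+siATF4, siMESH1 and siATF4, while 211506_s_at averages 0.24, 0.19 and 0.16 and overlaps siNT.

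The order of the 4 groups therefore was not the same for every gene. For IL6 it was siATF4 (1.10 ± 0.057, SD, n = 3 here and below), siMESH1+siATF4 (0.81 ± 0.078), siMESH1 (0.11 ± 0.10) and siNT, the last 2 not differing beyond their spread as deposited. For CXCL6 it was siMESH1+siATF4 (1.31 ± 0.089), siATF4 (1.08 ± 0.068), siNT and siMESH1 (-0.72 ± 0.11), the first 2 not passing the test as deposited (difference 0.23, adjusted p = 0.074). With housekeeping centring that difference was 0.31 (adjusted p = 0.021), under the fold minimum. LIF averaged 0.67 ± 0.23 in siMESH1+siATF4 and 0.60 ± 0.062 in siATF4, which overlapped, and 0.014 ± 0.017 in siMESH1. Across the 12 arrays CXCL2 correlated with CXCL6 at r = 0.97 and with CXCL1 at r = 0.96, and CXCL1 with LIF at r = 0.95. CXCL5 correlated with CXCL8 at r = 0.81 and with CXCL6 at r = 0.08. The CXCL5 and CXCL6 promoters are the most alike of those compared. These coefficients describe 12 points in 4 groups that share arrays and scaling.

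Among genes outside the 10, the 5 whose values were most like those of IL6 over the 12 arrays were HABP2 (r = 0.984), SNHG32 (0.983), CCDC90B (0.983), IFRD1 (0.981) and CES2 (0.979). IFRD1, for example, averaged 0.58 in siMESH1+siATF4, 0.10 in siMESH1 and 0.75 in siATF4. Those most like CXCL8 were ZNF85 (0.930), FBXO34 (0.926), ASAH1 (0.925), ZNF669 (0.918) and SNX2 (0.915). ZNF85 averaged 0.51 in siMESH1+siATF4, 0.48 in siMESH1 and 0.35 in siATF4.

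The 6 CXC chemokine genes lie side by side on chromosome 4 with the platelet chemokine genes PF4, PF4V1 and PPBP and the pseudogene PPBPP2. CXCL8 and CXCL6 are neighbours at the end of the cluster that carries CXCL8, and differed in direction in siMESH1 (0.54 and -0.72). CXCL5, CXCL3 and CXCL2 lie at the opposite end, with PPBPP2 between CXCL3 and CXCL2, and their values in siMESH1+siATF4 were 0.59, 0.39 and 0.85. PF4, PF4V1, PPBP and PPBPP2, which lie among them, ranged from -0.050 to 0.26 over the 3 silenced groups and were not called. The measured genes beyond either end, from ANKRD17 to AFM and from MTHFD2L to PARM1-AS1, ranged from -0.24 to 0.29 and were not called. Most genes were not called either: 1154, 980 and 780 of 11963 were called in siMESH1+siATF4, siMESH1 and siATF4. As no level is known, an unchanged gene and a gene without signal cannot be told apart among these neighbours.

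**Figure D5:**
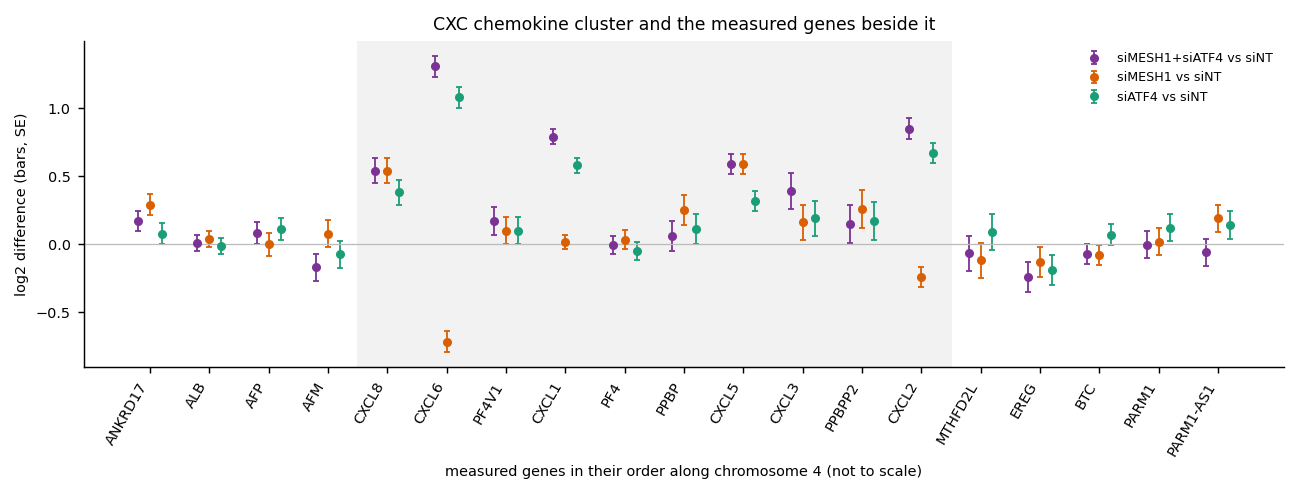
Log2 differences from siNT (vertical axis, with SE) in siMESH1+siATF4, siMESH1 and siATF4 for the measured genes in and beside the CXC chemokine cluster, in their order along chromosome 4 (horizontal axis, not to scale). The shaded stretch runs from CXCL8 to CXCL2. CXCL6 has the highest point (1.31) and the lowest (-0.72), and genes outside the shading stay between -0.24 and 0.29.

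Over all 11963 genes, 1154 were called in siMESH1+siATF4, 980 in siMESH1 and 780 in siATF4, each vs siNT. Without the fold minimum, 4254, 4019 and 3421 passed the adjusted p in the same order. The counts in the lists of other genes that follow are to be read against these totals. Of 11 other CXC, CX3C and XC ligands measured, CX3CL1, a membrane-bound chemokine, rose to 0.89 in siMESH1+siATF4 and 0.82 in siATF4, against -0.026 in siMESH1. CXCL14 fell in siMESH1+siATF4 (-0.64, adjusted p = 6.2e-06) and stood at 0.24 in siMESH1, and with housekeeping centring its fall was lost (-0.41) and its siMESH1 value was called higher (0.57). Of 16 other CC ligands 0 were called by limma in any silenced group, with 1, 1 and 3 at an unadjusted p under 0.05 in siMESH1+siATF4, siMESH1 and siATF4 and 0 by the methods' t-test, and their differences ranged from -0.24 to 0.32. Of 20 chemokine receptors 1 was called, ACKR3, a scavenging receptor that binds CXCL11 and CXCL12, which rose in siMESH1+siATF4 (0.84), siMESH1 (0.86) and siATF4 (0.71). Of 16 genes of IL6 family signalling 1 rose, the receptor IL6R, at 0.54 in siMESH1+siATF4 and 0.59 in siATF4, against -0.080 in siMESH1, and its siMESH1+siATF4 call was lost without replicate 3 of that group (0.48).

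Among 15 NF-kB subunits, inhibitors and feedback genes, 3 were called higher and 1 lower in siMESH1+siATF4, 0 in siMESH1 (7 at an unadjusted p under 0.05, and 0 by the methods' t-test), and 2 higher and 1 lower in siATF4. Of all genes, 4.40% were called higher in siMESH1+siATF4, 8.19% in either direction in siMESH1 and 2.49% higher in siATF4. Without the fold minimum 4019 of 11963 genes passed the adjusted p in siMESH1, so many pass an unadjusted p. The inhibitors TNFAIP3 (1.01 in siMESH1+siATF4, 0.88 in siATF4) and NFKBIA (0.70 and 0.63 in the same groups) rose in both. The third rise in siMESH1+siATF4 was TRAF1, a TNF receptor adaptor, at 0.51 (adjusted p = 0.0030), a call lost with array median centring (0.50, just under the fold minimum), after adjustment of the methods' t-test (adjusted p = 0.10) and without siNT replicate 1 (0.42) or 2 (0.45) or siMESH1+siATF4 replicate 2 (0.48) or 3 (0.50). In siMESH1, TNFAIP3 and NFKBIA stood at 0.49 and 0.45, under the fold minimum, and at 0.82 and 0.78, called, with housekeeping centring. CHUK, which encodes the kinase subunit IKK-alpha, fell in both siMESH1+siATF4 (-1.26, 2.39-fold) and siATF4 (-1.39, 2.62-fold) and was at -0.087 in siMESH1. The list medians were 0.18, 0.032 and 0.18 in siMESH1+siATF4, siMESH1 and siATF4.

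Of 21 genes that feed IL1, TNF and Toll-like receptor signals into NF-kB, 2 were called higher in siMESH1+siATF4, 1 lower in siMESH1 and 2 higher in siATF4. Over all 11963 genes these counts were 526, 643 and 298. LY96, the co-receptor of TLR4, rose most, 5.74-fold in siMESH1+siATF4 (2.52, SE 0.15) and 4.78-fold in siATF4 (2.26), against 0.43 in siMESH1, which was called with housekeeping centring (0.76) or without siNT replicate 1 (0.59). IL1RAP, the accessory chain of the IL1 receptor, was called higher in siATF4 (0.96) and stood at 0.43 in siMESH1+siATF4, where housekeeping centring (0.65) and 1 probe set per gene (0.98) gave calls, and at -0.43 in siMESH1 (-0.52, called, with 1 probe set per gene). TICAM1, a Toll-like receptor adaptor, rose in siMESH1+siATF4 (0.56) and stood at 0.40 in siATF4, called with housekeeping centring (0.54). TLR3, a receptor for double-stranded RNA, fell in siMESH1 (-0.52, adjusted p = 1.7e-04), a call lost with housekeeping centring (-0.19) and without siNT replicate 1 (-0.48) or 2 (-0.49) or siMESH1 replicate 3 (-0.46).

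Of 12 AP-1 and C/EBP factors, 2 were called higher in siMESH1+siATF4, 1 higher and 1 lower in siMESH1, and 0 in siATF4 (6 at an unadjusted p under 0.05, and 0 by the methods' t-test). Over all 11963 genes, 526 were called higher in siMESH1+siATF4, 980 in either direction in siMESH1 and 780 in siATF4. CEBPB, a regulator of IL6 and CXCL8, rose in siMESH1+siATF4 (0.92) and siMESH1 (0.50) and was at 0.38 in siATF4. Its siMESH1 call was lost without siNT replicate 1 (0.48) or 3 (0.49), without siMESH1 replicate 1 (0.48) or when arrays were centred on their medians (0.48), and its siATF4 value was called with housekeeping centring (0.53). ATF3, a stress-induced factor, rose in siMESH1+siATF4 (0.57), a call lost without siNT replicate 3, and stood at 0.36 in siMESH1, where housekeeping centring gave a called 0.69. It was at 0.29 in siATF4 (adjusted p = 0.012), and siMESH1+siATF4 lay above siMESH1 by 0.21 (adjusted p = 0.060). By qRT-PCR the study reported that siATF4 abolished the ATF3 rise seen with siMESH1, unlike these array values, and the source of this discrepancy was not tested. FOSL1, an AP-1 subunit, fell in siMESH1 (-0.53, adjusted p = 3.2e-05), a call lost with housekeeping centring (-0.20) or without siNT replicate 2 (-0.48), and lay just under the fold minimum in siMESH1+siATF4 (-0.50), where array median centring (-0.51) and 4 of the 6 settings that left out an array gave calls.

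Of 7 factors that control cytokine mRNA decay, 1 was called lower in siMESH1+siATF4, 1 lower in siMESH1 and 0 in siATF4 (3 at an unadjusted p under 0.05, and 0 by the methods' t-test). Over all 11963 genes, 628 were called lower in siMESH1+siATF4, 643 lower in siMESH1 and 780 in either direction in siATF4. ZFP36L2 fell in siMESH1+siATF4 (-0.54) and siMESH1 (-0.59) and was at -0.45 in siATF4, and both calls were lost with housekeeping centring (-0.31 and -0.26) or without siNT replicate 2 (-0.44 and -0.49). In siATF4 it was called once cross-hybridising probe sets were left out (-0.66), with 1 probe set per gene (-0.66), and without siNT replicate 1 (-0.50) or siATF4 replicate 2 (-0.51). These lists were chosen with earlier results of the same arrays known, so their counts are descriptions.

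Among markers of other cell types that a culture could hold, limma and the methods' t-test called 0 of 5 for leukocytes, 0 of 4 for endothelium and 0 of 4 for fibroblasts in any silenced group, and the differences ranged from -0.34 to 0.31. Over all 11963 genes limma called 1154, 980 and 780 in siMESH1+siATF4, siMESH1 and siATF4. Lists this short may therefore hold no call, and these counts say nothing about the presence of such cells. At an unadjusted p under 0.05 there were 2, 1 and 3 leukocyte markers in siMESH1+siATF4, siMESH1 and siATF4, 1 fibroblast marker in siATF4 and 0 endothelial markers. Of 8 renal tubular carcinoma markers, CA12 (-0.76 in siMESH1+siATF4, -1.61 in siMESH1) and KRT18 (0.63 and -0.54 in the same groups) were called, the siMESH1 call of KRT18 being lost with housekeeping centring (-0.21) or without siNT replicate 2 (-0.49). Because the table holds differences only, the presence of renal or other markers could not be checked, and in a bulk culture fewer cells of a kind and less RNA per cell cannot be told apart. The signal of the 3′ control probe set less that of the 5′ control probe set, a sign of RNA integrity, was taken relative to siNT. A higher value means relatively more 3′ signal. For ACTB it was -0.30 in siMESH1+siATF4, -0.11 in siMESH1 and -0.29 in siATF4, and for GAPDH it was -0.022, 0.077 and -0.090. The ACTB value was thus lowest in the groups in which CXCL1, CXCL2, CXCL6, IL6 and LIF were higher, and its part in those differences was not tested. Spike-in controls averaged 0.068 in siMESH1+siATF4, -0.023 in siMESH1 and 0.25 in siATF4, whose part likewise was not tested.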

How the data were processed

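RCC4 cells were profiled on 12 Affymetrix arrays, 3 biological replicates in each of 4 siRNA groups. From the scans, the authors computed RMA signals on the log2 scale in Affymetrix Expression Console and subtracted the siNT mean of each probe set (tool versions: not given in the sources used here). That mean lay within 1.20e-04 of 0 for every probe set, so no level is known and no filter on low values was possible. Of 22277 probe sets, 62 controls, 1043 with several symbols and 2164 with none were left out, and 19064 with 1 symbol (19052 matched by Entrez identifier) entered the tests. A gene was the mean of its probe sets, which gave 11963 genes. HDDC3 had 0 named probe sets and is not analysed here. Every array column was matched to a sample by its label, and 0 columns were left without one.

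All arrays entered 1 fit of limma 3.58.1 (lmFit and eBayes) in R 4.3.3, 1 mean for each group, no blocking factor, 8 residual and 4.32 prior degrees of freedom. The same fit was run on all probe sets. In each of 7 comparisons a call needed an adjusted p below 0.05 (Benjamini-Hochberg over the whole table) and a log2 difference of 0.5 or more, which is the fold threshold that the study applied. The script was tested on simulated data. Alternatives covered array centring, the replicate block, probe sets that may cross-hybridise, 1 probe set per gene, the arrays fitted, a robust prior, the methods' t-test, other fold minimums and each array left out. Promoter identity came from Biopython 1.88, tables from Python 3.11.15, pandas 2.3.3 and numpy 2.4.6, and figures from matplotlib 3.10.9.

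The genes named are the 10 genes, ATF4, up to 4 called genes per list with the smallest adjusted p, and the 5 genes most like IL6 and CXCL8 across arrays. Genes beside the chromosome 4 cluster were named for their position. The 10 genes and all lists were chosen with earlier results of these data known. The number of arrays limits the precision.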

Additional observations from a re-analysis of the deposited data

Results flagged for a closer look

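The interaction test of limma, which asks whether the siMESH1 difference was the same with and without siATF4, had an adjusted p under 0.05 for 3 of the 10 genes and for 1424 of 11963 genes in all. The siMESH1 difference with siATF4 exceeded the one without it by 0.96 for CXCL6 (adjusted p = 9.5e-05) and by 0.43 for CXCL2 (adjusted p = 0.020). For IL6 it was lower, at -0.40 (adjusted p = 0.012). CXCL6 alone also reached the fold minimum, and with housekeeping centring CXCL2 was at 0.17 (adjusted p = 0.17). Among single probe sets the same test gave -0.41 for CXCL5 probe set 214974_x_at (adjusted p = 0.023) and -0.65 for CXCL8 probe set 202859_x_at (adjusted p = 0.0020), while the other CXCL8 probe set, 211506_s_at, gave -0.11 (adjusted p = 0.79). The spike-in control probe sets, which measure no cellular RNA, averaged 0.25 in siATF4 (0.31, 0.28 and 0.15 on its arrays), above the siNT arrays (-0.027, -0.039 and 0.066).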

How the results depend on the processing

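Of 1299 comparisons of a gene's value with its value under an alternative, 1239 kept direction and side of the threshold, 11 lost the call, 9 gained it and 40 changed sign, all of the last with differences under the fold minimum. Many of these alternatives could not change a difference, only its p. They are the replicate block, the robust prior, fits of only the groups compared, and omission of an array from a group not compared. The total therefore overstates how far the values were tested. The replicate numbers did not pair the arrays: deviations of same-numbered arrays correlated at -0.191 to 0.095 (18 pairs) and 2 of 12 arrays were closest to their own number. A fit with the replicate block gave 5 of the 10 genes in siATF4 vs siNT and changed no call among them, with 781 genes called in all against 780. Leaving out each array in turn gave 2 to 3 called genes in siMESH1 vs siNT and 6 to 7 in siMESH1+siATF4 vs siNT, and the main count in the other comparisons. With no fold minimum the counts were 5 for siMESH1 vs siNT, 3 for siMESH1+siATF4 vs siATF4 and 3 for the interaction. With a minimum of 1 on the log2 scale they were 1 for siMESH1+siATF4 vs siNT, 0 for siMESH1 vs siNT, 2 for siATF4 vs siNT, 2 for siMESH1+siATF4 vs siMESH1, 1 for siMESH1 vs siATF4 and 0 for the interaction. Without probe sets that may cross-hybridise, which left CXCL2, CXCL8 and CCL2 unmeasured, they were 4 for siMESH1+siATF4 vs siNT and 1 for siMESH1 vs siNT. With 1 probe set per gene, the most variable, they were 1 (CXCL5) for siMESH1+siATF4 vs siATF4 and 2 (CXCL6 and CXCL8) for the interaction. With housekeeping centring they were 3 for siMESH1 vs siATF4 and 4 for the interaction. CCL2 lost its call in siMESH1+siATF4 vs siMESH1 under the methods' t-test after adjustment, where 5 genes were left. The causes were not tested.

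Sign changes were as follows. With array median centring CXCL1 (-0.010) and LIF (-0.012) turned in siMESH1 vs siNT and CXCL8 (0.010) in siMESH1+siATF4 vs siMESH1. With housekeeping centring CXCL2 (0.087) turned in siMESH1 vs siNT, CCL20 in siMESH1+siATF4 (0.13), siMESH1 (0.33) and siATF4 (0.13) vs siNT, CXCL5 in siMESH1+siATF4 vs siMESH1 (-0.11), CCL2 in siMESH1+siATF4 vs siATF4 (0.012), CXCL3 in siMESH1 vs siATF4 (0.15), and CXCL1 (-0.064), CXCL3 (-0.22) and LIF (-0.20) in the interaction. Without probe sets that may cross-hybridise CXCL5 turned in siMESH1+siATF4 vs siMESH1 (-0.23) and vs siATF4 (-0.043). Leaving out single arrays gave ranges across 0 in siMESH1 vs siNT for CXCL1 (-0.009 to 0.038), CCL20 (-0.088 to 0.12) and LIF (-0.044 to 0.045), and for CCL20 in siATF4 (-0.11 to 0.10) and siMESH1+siATF4 (-0.18 to 0.026) vs siNT. They did so in siMESH1+siATF4 vs siMESH1 for CXCL5 (-0.053 to 0.059) and CXCL8 (-0.067 to 0.078), in siMESH1+siATF4 vs siATF4 for LIF (-0.022 to 0.20), in siMESH1 vs siATF4 for CXCL3 (-0.16 to 0.11) and CCL20 (-0.068 to 0.078), and in the interaction for CXCL3 (-0.088 to 0.18), CCL20 (-0.19 to 0.014) and LIF (-0.036 to 0.19).

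Over all genes, housekeeping centring called 1877 in siMESH1+siATF4 vs siNT (1154 as deposited), 2817 in siMESH1 vs siNT (980) and 1457 for the interaction (516). With no fold minimum the counts were 4254, 4019 and 3421 for siMESH1+siATF4, siMESH1 and siATF4 vs siNT (1154, 980 and 780), 3348 and 1403 for siMESH1+siATF4 vs siMESH1 and vs siATF4 (730 and 195), 4004 for siMESH1 vs siATF4 (1036) and 1424 for the interaction (516). With a minimum of 1 they were 281, 239, 170, 93, 21, 165 and 102 in the same order, and the methods' t-test after adjustment called 122 in siMESH1+siATF4 vs siATF4 (195).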
